A study of Homo sapiens with 4 samples.

Results

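The 9 genes described here encode parts of the machinery that holds RNA polymerase II (Pol II) shortly after it starts a gene and then releases it into elongation. They are POLR2A, HEXIM1, AFF1, AFF4, CDK9, CCNT1, SUPT5H, SUPT6H and ELL2, and they were taken by symbol from the authors' deposited table of BRCA2 sites, with every site the table pairs with them. The table held 15131 sites, of which 10 were paired with 8 of the 9 genes. CCNT1 had no row and counts as having no site.

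The BRCA2 group was chromatin immunoprecipitated with an antibody to BRCA2 (Bethyl A300-005A), and the group it was set against was input chromatin, with 2 libraries in each. Both came from hTert-HME1, an established line of human mammary epithelium that telomerase keeps dividing. The labels name no treatment; the cells were fixed with formaldehyde during log-phase growth, and came from the same line in both groups. No library with a control antibody was analysed here, so DNA bound by BRCA2 and DNA pulled down for other reasons cannot be told apart. Whether the replicates were separate cultures is not given in the sources used here, so the spread behind the FDR may be only technical.

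BRCA2 is known for its part in homologous recombination, which repairs broken DNA from an intact copy. In most human genes Pol II pauses just downstream of the start, held by the factors DSIF and NELF. The kinase P-TEFb, made of CDK9 and a cyclin T, phosphorylates DSIF, NELF and the Pol II tail and so releases the polymerase. HEXIM proteins with the 7SK RNA keep P-TEFb inactive, and the super elongation complex, built on AFF scaffolds with ELL proteins, brings it to genes. Conflicts between transcription and replication are a known source of DNA damage.

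For each site the authors' deposited table gives the mean concentration of normalized reads in the BRCA2 ChIP group and in the input group, both on the log2 scale, a log2 fold (ChIP minus input), and a false discovery rate (FDR) from the authors' DiffBind comparison, adjusted over their sites. All concentrations, folds, distances and FDR values below are from that table unless another source is named. It gives no value per library, so no spread between replicates can be shown, the depth is unknown, and the authors' FDR is the test of each site. Site positions are on hg19.

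Of the 9 genes, 8 (88.9%) had a site in the authors' deposited table, against 44.3% of the 20056 protein-coding genes. A site over the start or within 1 kb of it, by the listed distance, was held by 6 of the 9 (66.7%), against 23.5% of coding genes. A site with a log2 fold of at least 2 was held by 5 of the 9 (55.6%), against 7.82%. Of those 5, CDK9 was counted at exactly 2.00. With the ChIP level set against the median input of all sites, CDK9 had 1.40 and SUPT6H 1.67, both below 2. The share of coding genes was not recounted on that input. The genes were chosen with the results known, so these shares describe the list and were not tested.

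The 10 sites lay above input, as did 15129 of the 15131 sites in the authors' deposited table, so this holds for nearly any listed site. Their log2 folds ran between 0.79 and 5.27, with a median of 1.92, a 3.78-fold enrichment. Over all 15131 sites the median was 1.15, or 2.22-fold. The sites fell into 2 ranges with a wide gap between them: AFF1, HEXIM1 and POLR2A at 5.27, 4.37 and 4.08, and the remaining 7 at 2.11 or less. A log2 fold of 4 was reached by 307 sites (2.03%) of the authors' deposited table. The authors' FDR was under 0.001 at 7 of the 10 sites and at 44.6% of all sites.

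**Figure D1:**
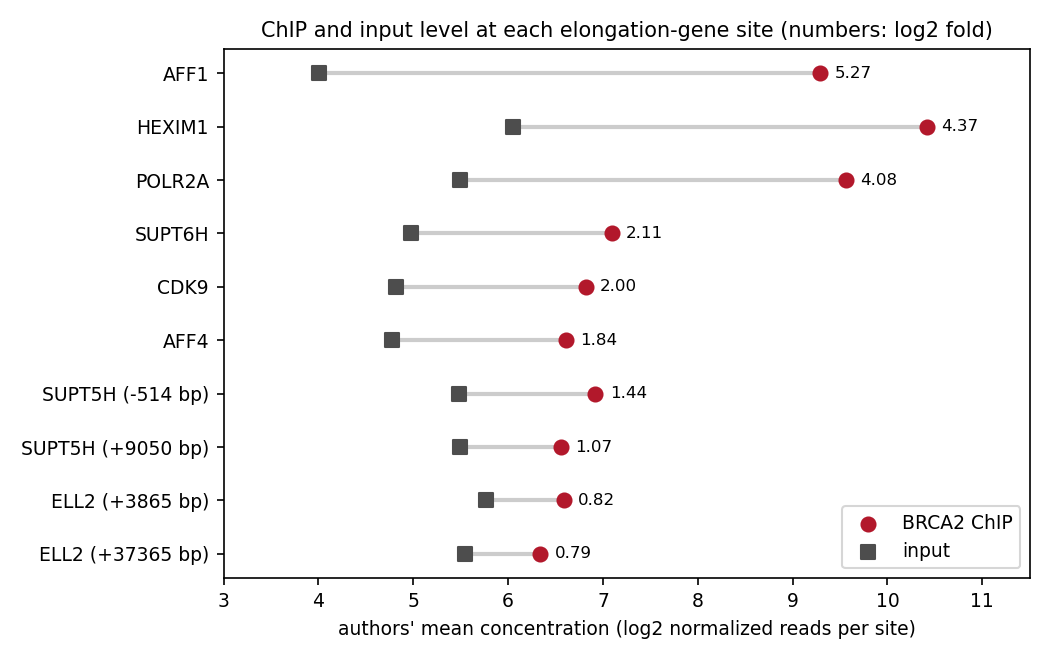
Mean concentration (log2 normalized reads, horizontal axis) in the BRCA2 ChIP group (red circles) and the input group (grey squares) at each of the 10 sites, ordered by log2 fold, which is printed beside each. Points are the authors' means of 2 libraries with no error given. ChIP concentrations reach 9.29 or more at AFF1, HEXIM1 and POLR2A and lie between 6.34 and 7.09 at the other sites.

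POLR2A encodes RPB1, the largest subunit of Pol II, whose tail P-TEFb phosphorylates. Its site, at chr17:7387225-7387724, had a mean concentration of 9.56 in the BRCA2 ChIP libraries, against 5.49 in the input libraries. The log2 fold was 4.08 (16.9-fold) with an FDR of 6.29e-35. This is a high ChIP level over an ordinary input level: 98.4% of all sites had a lower ChIP concentration and 56.0% a lower input concentration. The site covers the start of POLR2A, reaching 460 bp before it and 39 bp into the gene. It also covers the start of ZBTB4, a zinc finger gene on the opposite strand whose listed start lies 103 bp away. SLC35G6, which ends 842 bp from the site, is paired with it too. Within 100 kb lay 7 other sites, with log2 folds between 0.99 and 2.76, each lower than that of POLR2A.

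The 250 bases before the RefSeq start of POLR2A are shown because the site spans them if the listed hg19 start is the same start. They were searched on both strands for the GC box as GGGCGG, the CCAAT box as CCAAT, the TATA box as TATAAA, the E box as CACGTG and the AP-1 motif as TGACTCA. Capitals mark each match, and no matches overlapped. The window is on build GRCh38.p14, chr17:7484116-7484365, forward strand, read 5′ to 3′ towards the gene.
POLR2A: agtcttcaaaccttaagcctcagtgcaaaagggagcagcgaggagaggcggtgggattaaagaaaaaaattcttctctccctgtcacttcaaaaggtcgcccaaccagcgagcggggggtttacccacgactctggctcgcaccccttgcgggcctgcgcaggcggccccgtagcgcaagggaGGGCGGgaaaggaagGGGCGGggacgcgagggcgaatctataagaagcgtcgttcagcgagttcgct
It held 21 CpG pairs and 2 GC boxes, the nearer ending 47 bases before the start. Over 22154 such windows of 15826 coding genes the median was 16 CpG pairs, and 53.7% had a GC box.

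HEXIM1 encodes the protein that holds P-TEFb inactive with the 7SK RNA. Its site, at chr17:43225145-43225644, had a concentration of 10.42 in the BRCA2 ChIP libraries, the highest ChIP level of the 10 sites, against 6.05 in the input libraries, also the highest of the 10. The log2 fold was 4.37 (20.7-fold) and the FDR 3.05e-56. The site does not reach the start. It lies inside the gene, 461 to 960 bp downstream of the listed start, in a gene of 3625 bp in RefSeq. It was paired with no other gene, unlike the other 9 sites. The 7 other sites within 100 kb had log2 folds between 0.73 and 1.74, with a median of 0.92. The nearest, 13590 bp away, had 0.74 and lies in HEXIM2, the paralogue of HEXIM1 on the same chromosome.

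CDK9 is the kinase of P-TEFb. Its site, at chr9:130548523-130549022, had 6.82 in the BRCA2 ChIP libraries and 4.82 in the input libraries, a log2 fold of 2.00 (4-fold) with an FDR of 3.62e-08. Like that of HEXIM1 it lies inside the gene and downstream of the start, by 565 to 1064 bp. Its ChIP level was above 66.9% of all sites, and its input level was low, above only 12.4%. The microRNA gene MIR3960 ends 321 bp from the site and is also paired with it. Of 5 other sites within 100 kb, none had a larger fold; the highest had 1.78.

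CCNT1 encodes cyclin T1, the main cyclin partner of CDK9, and was the member with no site. Of the coding genes next to it in RefSeq, KANSL2 had a weak site, with 6.47 in the BRCA2 ChIP libraries and 5.74 in the input libraries (log2 fold 0.72, FDR 0.0307), and SPMIP11 had none. CCNT2, the other cyclin T gene, had a site over its start with 6.69 in the BRCA2 ChIP libraries and 5.44 in the input libraries, with a log2 fold of 1.25 (FDR 0.00057). The table lists only sites up to an FDR of 0.05, so a gene without a row may still have had a ChIP level above input.

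The windows before the starts of HEXIM1 and CCNT1, genes of the same regulatory complex, are shown side by side. HEXIM1 had a strong site and CCNT1 had no row in the authors' deposited table. No value is listed for CCNT1, so the size of any difference between them is unknown. They are from RefSeq on GRCh38.p14, at chr17:45148225-45148474, forward strand, and chr12:48716708-48716957, reverse strand, with matches to the same motifs in capitals.
HEXIM1: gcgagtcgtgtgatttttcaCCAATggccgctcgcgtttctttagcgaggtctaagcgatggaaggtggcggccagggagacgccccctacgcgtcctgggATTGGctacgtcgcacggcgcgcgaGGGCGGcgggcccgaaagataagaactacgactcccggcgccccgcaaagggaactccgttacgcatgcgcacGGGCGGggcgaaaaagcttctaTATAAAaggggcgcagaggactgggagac
CCNT1: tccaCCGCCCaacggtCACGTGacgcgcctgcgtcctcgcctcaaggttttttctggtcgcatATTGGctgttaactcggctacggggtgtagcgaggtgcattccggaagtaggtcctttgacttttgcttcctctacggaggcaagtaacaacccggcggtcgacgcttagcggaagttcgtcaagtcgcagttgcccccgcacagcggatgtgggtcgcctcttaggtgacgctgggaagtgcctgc
HEXIM1 has 31 CpG pairs, 2 GC boxes, 2 CCAAT boxes and a TATAAA ending 24 bases before the start. TATAAA is in 9.01% of coding-gene windows and in 1 of the 11 windows of these genes. The CCNT1 window, before its outermost RefSeq start, has 24 CpG pairs, 1 GC box, 1 CCAAT box and a CACGTG. RefSeq gives CCNT1 a further start 20469 bp downstream, whose window, not shown, has 0 CpG pairs and none of the motifs. By its listed distance the site of HEXIM1 lies downstream of the window shown, if the listed and RefSeq starts are the same. The letters thus describe the promoter and not the site.

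AFF1 encodes a scaffold of the super elongation complex, and it had the largest log2 fold of the 10 sites. The site, at chr4:87927939-87928438, had 9.29 in the BRCA2 ChIP libraries, against 4.01 in the input libraries, a log2 fold of 5.27 (38.6-fold) with an FDR of 5.25e-49. Only 114 sites of the table had a larger fold. The input level was the lowest of the 10, and 1.11% of all sites had a lower one. The pseudogene TECRP1, 56663 bp away, is paired with the site too. The chromosome 4 sites as a whole had a median input of 4.51, against 5.42 over all sites. With the ChIP level set against the median input of chromosome 4 the value for AFF1 was 4.78, and against that of all sites 3.87. By ChIP concentration the order was HEXIM1, POLR2A, AFF1, and by log2 fold it was AFF1, HEXIM1, POLR2A. The part of the low input in this fold was not tested beyond these values.

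By the authors' listing the AFF1 site lies deep in the gene, 71785 to 72284 bp from the listed start. RefSeq gives AFF1 a further start, which on GRCh38.p14 lies 72260 bp downstream of the outermost one. If the listed hg19 start and the outermost RefSeq start are the same, the further start falls within the site, 24 bp from its far edge, and the site reaches 475 bp before it. The distances come from different builds and annotations, and no position was carried from one to the other. Across coding genes with more than 1 RefSeq start, sites inside the gene and over 1 kb from the listed start spanned the distance of another RefSeq start in 11 of 27 pairs of a site and a gene with a log2 fold of at least 4 (40.7%). The share was 11.3% of 151 pairs with a fold from 2 to 4, and 8.70% of 1495 pairs below 2. This count was made after the AFF1 site had been seen, and AFF1 is 1 of the 11. Counting a site within 1 kb of any RefSeq start, 7 of the 9 genes had one, against 24.8% of coding genes.

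The 250 bases before this further start of AFF1 are shown because the site has the distance to span them. They lie at chr4:87007021-87007270, forward strand, on GRCh38.p14.
AFF1: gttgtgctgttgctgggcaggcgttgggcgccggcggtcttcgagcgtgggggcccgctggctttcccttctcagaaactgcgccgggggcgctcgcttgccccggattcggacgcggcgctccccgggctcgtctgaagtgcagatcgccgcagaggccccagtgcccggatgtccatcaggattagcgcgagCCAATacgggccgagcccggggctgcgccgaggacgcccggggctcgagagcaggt
The window has 31 CpG pairs, more than 86.4% of coding-gene windows, and a CCAAT box ending 52 bases before the start. It has no GC box, while 9 of the 11 windows of these genes have at least 1, against 53.7% of coding-gene windows. The 11 windows come from 8 genes. The 2 windows of SUPT5H, with starts 62 bp apart, overlap and hold the same GC box.

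**Figure D2:**
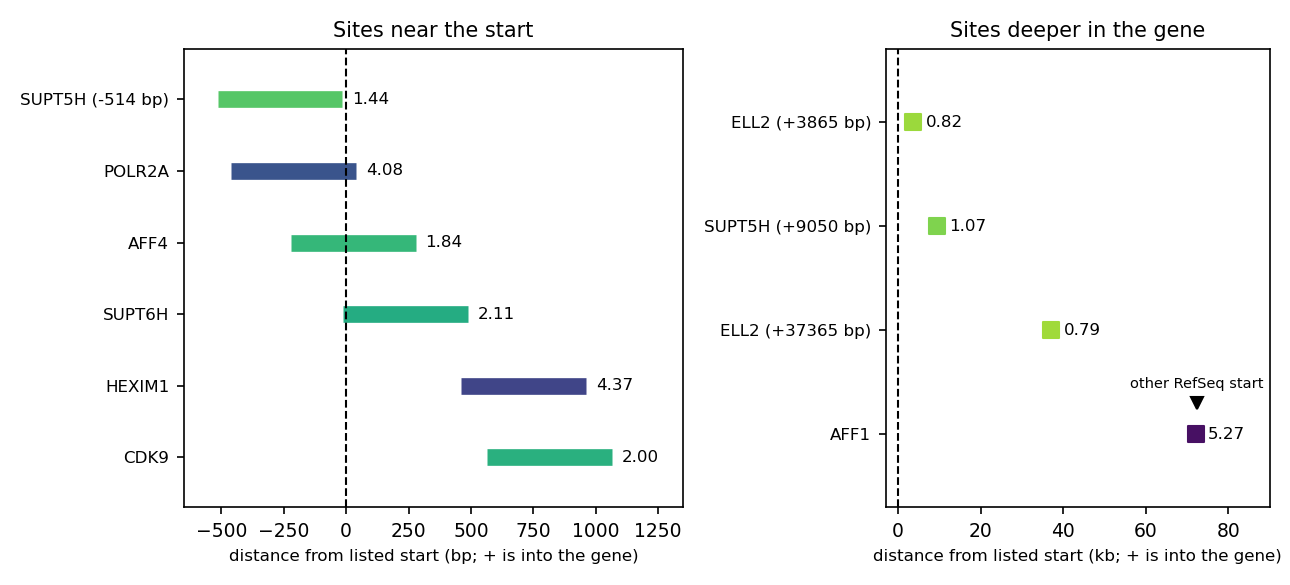
Place of the 10 sites relative to the listed start of each gene (dashed line; left panel in bp with bars to scale, right panel in kb with squares at the site's middle), coloured by log2 fold, which is printed beside each. The sites near starts range from SUPT5H, which ends 15 bp before the start, to CDK9, which begins 565 bp after it; the triangle marks the distance of the further RefSeq start of AFF1, 72260 bp.

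AFF4, the other scaffold of the complex among these genes, had a much weaker site. At chr5:132299048-132299547 the concentration was 6.61 in the BRCA2 ChIP libraries and 4.77 in the input libraries, a log2 fold of 1.84 (3.58-fold) with an FDR of 1.23e-06. The site covers the start, from 221 bp before it to 278 bp inside. It also covers the start of CTC-350I8.1, listed 136 bp away on the opposite strand. Its ChIP level was ordinary, above 50.3% of all sites, and its input was low, above only 10.9%. Against the median input of all sites the value was 1.19. The strongest site within 100 kb, at 4.60, covers the start of UQCRQ, 97056 bp away.

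ELL2 encodes an elongation factor of the same complex, and its sites had the lowest log2 folds of those described here. The site at chr5:95293910-95294409, 3366 to 3865 bp inside the gene, had 6.59 in the BRCA2 ChIP libraries and 5.77 in the input libraries, a log2 fold of 0.82 (1.77-fold) with an FDR of 0.0138. The other, at chr5:95260410-95260909 and 36866 bp or more from the start, had 6.34 in the BRCA2 ChIP libraries and 5.55 in the input libraries, with a log2 fold of 0.79 (FDR 0.0355). A lower fold was listed for 12.7% of all sites in the first case and 9.27% in the other. Their input levels were above 78.6% and 61.3% of all sites. Against the median input of all sites the values were 1.17 and 0.92. The SUPT5H site inside its gene had 1.14 by that measure, so the place of ELL2 depended on the input used. Neither passes an FDR of 0.01, and there was no ELL2 site near the listed start. Both sites are also paired with CTD-2337A12.1, on the opposite strand, whose listed start lies 70 bp from that of ELL2. The sites share the gene and do not count as separate members.

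SUPT5H encodes SPT5, the large subunit of DSIF, which P-TEFb phosphorylates. Its stronger site, at chr19:39926282-39926781, had 6.92 in the BRCA2 ChIP libraries, against 5.48 in the input libraries, a log2 fold of 1.44 (2.71-fold) with an FDR of 2.75e-05. It ends 15 bp before the SUPT5H start and covers the start of RPS16, a ribosomal protein gene on the opposite strand whose start lies 208 bp from that of SUPT5H. The weaker site, at chr19:39935846-39936345 and 9050 bp inside the gene, had 6.56 in the BRCA2 ChIP libraries and 5.49 in the input libraries, with a log2 fold of 1.07 (FDR 0.00195). AC011500.1, which ends 3764 bp from the weaker site, is paired with it too. The neighbourhood held stronger sites: 3 of the 7 others within 100 kb of the promoter site had a larger fold. They were paired with ZFP36, a gene of mRNA decay, at 3.19 and 3.04, and with PLEKHG2 at 2.64.

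SUPT6H encodes SPT6, a histone chaperone that travels with elongating Pol II. Its site, at chr17:26989098-26989597, had 7.09 in the BRCA2 ChIP libraries, against 4.98 in the input libraries, a log2 fold of 2.11 (4.32-fold) with an FDR of 3.7e-10. It covers the start, from 11 bp before it to 488 bp inside, and also that of SDF2, on the opposite strand and 98 bp away. Its fold was above 90.6% of all sites, and its input level above 18.9%. Within 100 kb, 2 of 7 other sites had a larger fold, that over the start of KIAA0100 at 2.25 and that near NEK8 at 2.44.

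Some of the promoter sites covered the start of another gene. Of the 10 sites 4 covered a gene start, against 3338 of all 15131 (22.1%), and 3 of these 4, at POLR2A, SUPT6H and AFF4, covered the starts of 2 genes on opposite strands. The fourth, at SUPT5H, covered that of RPS16 alone. Among all sites over a start, 647 of 3338 (19.4%) covered the starts of at least 2 genes. Which of the paired genes a site belongs to cannot be told from the table. The median log2 fold was 1.24 over starts and 1.14 inside genes for all sites of those classes.

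**Figure D3:**
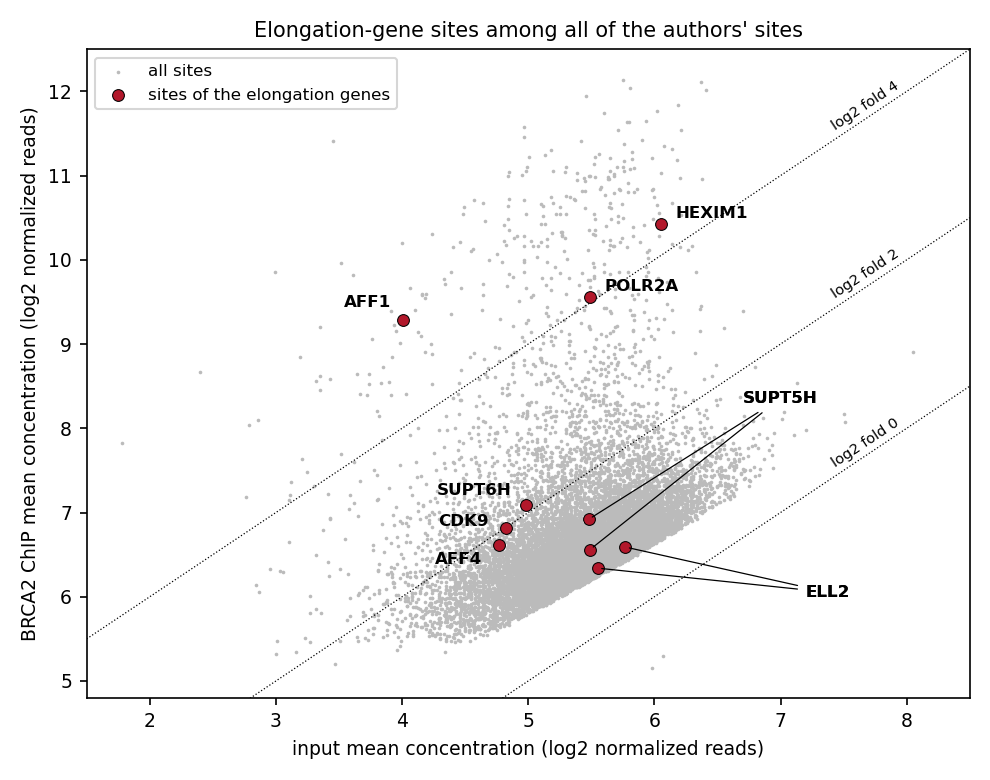
Mean BRCA2 ChIP concentration (vertical) against mean input concentration (horizontal), both in log2 normalized reads, for all 15131 sites (grey) and the 10 sites of the elongation genes (red). Dotted lines mark log2 folds of 0, 2 and 4. HEXIM1 and POLR2A lie high at input levels of 6.05 and 5.49, AFF1 lies high at an input of 4.01, and SUPT6H, CDK9 and AFF4 lie at inputs between 4.77 and 4.98.

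The level of input differed among the middle sites as well. SUPT6H, CDK9 and AFF4 had folds of 2.11, 2.00 and 1.84, with inputs of 4.98, 4.82 and 4.77, each below the 5.42 of all sites. Set against that common level, the values were 1.67, 1.40 and 1.19, and those of the 2 SUPT5H sites were 1.5 and 1.14. The 2 ELL2 sites had 1.17 and 0.92. The order of CDK9, AFF4 and the SUPT5H promoter site thus depended on which input level was used. So did that of the SUPT5H site inside the gene and the stronger ELL2 site. No spread between libraries is given that could separate them. HEXIM1, POLR2A and AFF1 stayed the highest of the 10, at 5.00, 4.14 and 3.87.

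A list of 47 other genes of Pol II subunits, pausing and elongation was counted in the same way. Of these, 32 (68.1%) had a site, against 44.3% of coding genes, and 24 (51.1%) had one near the start, against 23.5%. For genes on the reverse strand the listed distance runs to the site's downstream edge. By the shortest distance to the start, 26 of the 47 had a site near it. The share of coding genes was not recounted by that distance. The median log2 fold of the strongest site per gene was 2.06 for the 8 genes described above, 1.25 for these 32 and 1.31 over all coding genes with a site. Of the 47, 7 (14.9%) had a log2 fold of 2 or more, against 7.82% of coding genes.

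Those 7 were POLR2L, SUPT4H1, SSRP1, MLLT1, TCEA1, POLR2F and ELL. POLR2L, a small subunit shared by all 3 nuclear polymerases, had the largest fold, 5.47 (FDR 9.76e-51), with 9.39 in the BRCA2 ChIP libraries and 3.91 in the input libraries. Its site covers its start and that of TSPAN4. SUPT4H1, the small partner of SPT5 in DSIF, had 3.47, with 8.83 in the BRCA2 ChIP libraries and 5.36 in the input libraries, inside the gene at 576 bp or more from its start. That site also covers the end of RNF43. SSRP1, a subunit of the histone chaperone FACT, had 2.89, with 7.02 in the BRCA2 ChIP libraries and 4.13 in the input libraries. TCEA1, which encodes TFIIS, had 2.42, with 6.93 in the BRCA2 ChIP libraries and 4.50 in the input libraries. Both sites lay over the starts, and both inputs were below the 5.42 of all sites. The 7 genes were not recounted against a common input level. MLLT1 (ENL) had 2.64 and ELL 2.19, both of the super elongation complex. POLR2F had 2.23 at a site 81758 bp from its listed start.

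By complex, the counts were small and are to be read against the 44.3% of coding genes with a site and the 23.5% with one near the start. All 4 other genes of the P-TEFb and 7SK group, CCNT2, HEXIM2, LARP7 and MEPCE, had sites, with strongest log2 folds between 1.01 and 1.26. Of the 7 other genes of the SPT6 and PAF1 group, 6 had a site near the start, but their folds were low, between 0.80 and 1.43. RTF1 had none. Of the 4 NELF subunit genes none had a site, searched by current and older symbols and by Entrez ID. CDK12, CDK13 and CCNK, of the kinases that act on the Pol II tail later in elongation, each had a site near the start, with folds of 1.04, 1.72 and 1.28. Of 12 other genes named as Pol II subunits, POLR2B to POLR2M, 8 had a site. The POLR2M site lay 15495 bp inside the gene. Of 7 genes of TFIIS, TFIIF and elongin 4 had a site. No difference between complexes was tested.

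**Figure D4:**
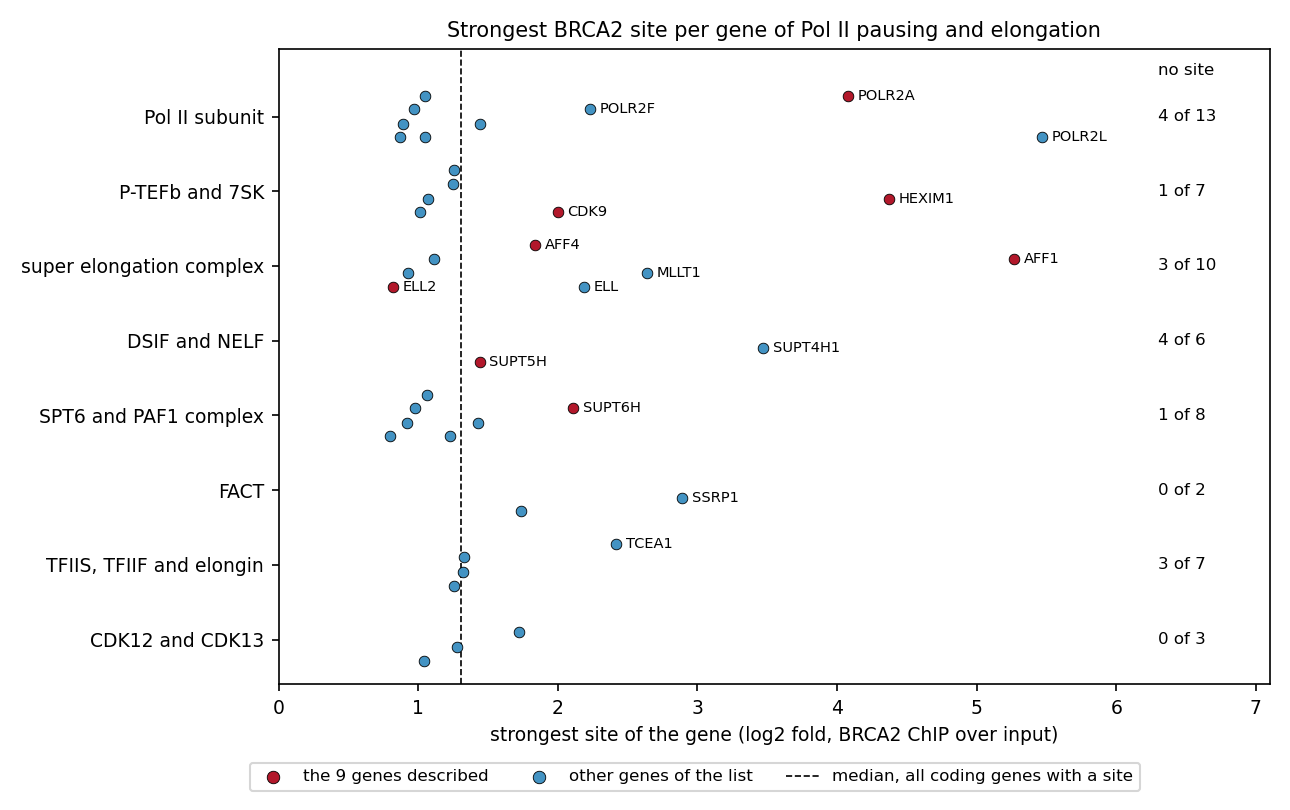
Strongest log2 fold (BRCA2 ChIP over input, horizontal axis) of each gene with a site, by complex, for the genes described (red) and the other genes of the list (blue), with small vertical offsets for legibility. The right column counts genes with no site, 4 of 6 for DSIF and NELF, and the dashed line is the median of 1.31 over all coding genes with a site.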

How the data were processed

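Chromatin from hTert-HME1 cells was measured by ChIP-seq in 2 BRCA2 ChIP and 2 input libraries. Per the submitters' processing notes, the tools were DiffBind, MACS2, Picard 1.92, SAMtools, Bowtie 1.1.1 and cutadapt 1.8.1, on hg19, with no settings. The deposited concentrations and fold are log2 values, and the FDR is a q-value, per the file headers. The authors averaged the libraries of a group, so depth and replicate spread are unknown. The fold and the difference of concentrations lay within 0.01 of each other. Other deposited columns give distances to genes.

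With Python 3.11.15 and pandas 2.3.3, the 23317 rows were matched by Entrez ID, symbol or older symbol to 20056 RefSeq coding genes of GRCh38.p14 (13850 matched). That build was used for names, gene order, distances between starts and promoter sequences, found for 8 of the 9 genes. Distance calculations were tested on simulated data. The genes and the list of 47 others were chosen with earlier results of these data known. 1 further gene first on the list is not reported here. Named genes are the members, genes sharing their sites, and listed genes with a log2 fold of at least 2; others were named after their values were seen. A list of gene symbols without measurements was not used.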

Additional observations from a re-analysis of the deposited data

How the results depend on the processing

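Of the 9 genes, 5 had a site at a log2 fold of at least 2, and 7 or 8 under each other threshold or overlap rule. At that fold the share of coding genes was 7.82%, and in the main setting it was 44.3%. Under the other settings no share was counted, so those counts describe the list only. Among the 5 genes at a log2 fold of at least 2, CDK9 and SUPT6H had 1.40 and 1.67 with the ChIP level set against the median input of all sites. Near the start the count of the 9 genes was between 4 and 7 under every setting. These settings include any RefSeq start, which was chosen after seeing the data. For coding genes only the main setting near the start (23.5%) and any RefSeq start (24.8%) were counted. Of the 47 other genes, 15 had a site at an FDR under 0.001, and 7 had one with a log2 fold of 2 or more. Near the start these counts were 10 and 4. Only the count of 7 has a share of coding genes by the same rule, 7.82%. The others cannot be set against coding genes in general. Fewer sites enter under these thresholds. The median log2 fold of the 10 sites was 2.06 at an FDR under 0.01 or with the strongest site per gene, 1.52 against the chromosome's median input and 1.45 against that of all sites. No paired analysis was possible because the table gives group means only, and no library could be left out.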
